A study of Mus musculus with 24 samples.

Results

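Mbp, Mobp, Mag, Mog, Opalin, Cnp, Cldn11, Ermn and Ugt8a are genes of myelin and of the oligodendrocytes that make it. Their probe sets were taken by gene symbol in the array's annotation, with no filter on a measured value. The 9 genes themselves were chosen with earlier results of these data known. Of the 45037 probe sets tested 25 carry their names, for 9 of 18193 genes. Mbp has 8 of these probe sets, Mobp 5, Cnp 3, Opalin, Ermn and Ugt8a 2 each, and Mag, Mog and Cldn11 1 each.

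The study measured transcripts in brains of male mice aged 12 ± 1 weeks, which from light onset were kept awake by gentle handling for 6 h or left undisturbed. Pull-down arrays, 6 after sleep deprivation and 6 controls, hold polyadenylated RNA bound to anti-FLAG beads from brains perfused with formaldehyde, which the labels assign to cells expressing Homer1a, an activity-induced form of a synaptic scaffold protein. Supernatant arrays (n = 4) hold the total RNA that the beads left behind, labelled as Homer1a negative cells, and whole-brain arrays, 4 after sleep deprivation and 4 controls, hold total RNA of unfixed tissue. Both sleep states occur among the supernatants, but the title and source of supernatant 13 disagree on its state, so the supernatants form 1 group. Not given in the sources used here are the strain, the genotype, the promoter that drives the tagged protein and so the share of oligodendrocytes that carry it. Per the labels the pulled-down RNA was amplified; for the other extracts this is not stated. These are bulk extracts, in which fewer oligodendrocytes and less RNA per oligodendrocyte cannot be told apart.

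Myelin is a spiral of oligodendrocyte membrane wound around an axon, rich in galactolipids and held together by a small set of abundant proteins. Mbp encodes myelin basic protein, which glues the cytoplasmic faces of the membrane, and Mobp a smaller basic protein of the same compartment. Mag and Mog are adhesion molecules, at the innermost and the outermost surface of the sheath. Opalin is a sialylated membrane glycoprotein of oligodendrocytes in the central nervous system, Cnp a phosphodiesterase that keeps cytoplasmic channels open, Cldn11 the claudin of myelin tight junctions, Ermn (ermin) an actin-binding protein and Ugt8a the enzyme that makes galactosylceramide. Several of their messages, that of Mbp best known among them, are carried in granules into the oligodendrocyte processes and translated at the sheath. SOX10 and MYRF are the transcription factors best known for switching these genes on.

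Promoter sequences were read for short motifs of these factors near the gene starts. Of the 9 genes, 8 (all but Mbp) had a promoter in the RefSeq table for build GRCm38.p6, read here as the 250 bases before the outermost annotated start. Motifs were sought in all 250 bases. The short SOX motif, ACAAAG or ACAATG on either strand, occurred in 5 of the 8, against 25.4% of windows made the same way for 27025 genes. The MYRF motif, CTGGCAC or CTGGTAC on either strand, occurred in 3 of the 8 (Mag, Mog and Cnp), against 5.9%. Cldn11 and Ugt8a held neither, and no motif was shared by all 8. No match of one motif overlaps a match of the other in these windows, and a match is only a run of letters, not a shown binding site. The 4 windows below are those of Opalin, on which the sleep deprivation result turns, of Mobp, which holds 6 SOX matches, and of Mag and Cnp, which hold both motifs. They are written 5′ to 3′ on the gene's strand, with motif matches in capitals, and are cut where they would enter the gene.
Opalin, minus strand, chr19:41077114-41077363: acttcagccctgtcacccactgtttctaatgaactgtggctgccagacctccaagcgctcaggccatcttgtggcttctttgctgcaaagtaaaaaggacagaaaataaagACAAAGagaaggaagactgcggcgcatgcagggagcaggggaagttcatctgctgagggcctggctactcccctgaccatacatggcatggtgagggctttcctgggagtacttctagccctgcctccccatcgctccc
Mobp, plus strand, chr9:120149492-120149741: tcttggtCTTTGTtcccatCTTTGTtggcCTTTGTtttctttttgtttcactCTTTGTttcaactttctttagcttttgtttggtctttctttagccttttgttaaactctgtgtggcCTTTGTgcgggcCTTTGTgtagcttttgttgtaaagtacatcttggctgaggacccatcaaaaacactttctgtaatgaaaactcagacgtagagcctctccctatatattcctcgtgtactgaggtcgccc
Mag, minus strand, chr7:30914923-30915172: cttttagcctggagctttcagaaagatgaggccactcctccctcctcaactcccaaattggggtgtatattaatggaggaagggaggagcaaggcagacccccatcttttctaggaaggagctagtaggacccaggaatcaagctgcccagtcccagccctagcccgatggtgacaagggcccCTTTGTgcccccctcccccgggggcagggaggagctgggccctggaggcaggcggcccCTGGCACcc
Cnp, plus strand, chr11:100574689-100574908: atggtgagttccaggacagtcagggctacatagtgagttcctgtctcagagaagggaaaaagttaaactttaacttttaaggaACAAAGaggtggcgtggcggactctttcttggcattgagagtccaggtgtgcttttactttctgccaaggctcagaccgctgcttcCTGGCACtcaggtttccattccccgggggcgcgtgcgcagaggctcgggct

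Values are log2 RMA intensities, in which 1 unit is a 2-fold difference, and levels can be compared between arrays within a probe set but not between probe sets. The median of an array was 4.37 to 5.70 in pull-down, 6.09 to 6.21 in supernatant and 6.04 to 6.24 in whole brain. A control for 18S ribosomal RNA read 6.83 to 11.14 in pull-down, 14.23 to 14.42 in supernatant and 13.79 to 13.94 in whole brain. The 3′ probe set of Gapdh exceeded the 5′ probe set by 3.29 to 5.96 in pull-down, 2.31 to 2.59 in supernatant and 2.49 to 2.95 in whole brain. Arrays are named by the number in their label. Sleep-deprived pull-down 1 and pull-down control 3 had the most 18S signal (11.04 and 11.14, against 9.70 or less in the others) and also the highest mean of the 9 genes (8.46 and 8.38, against 7.78 to 8.20). Pull-down control 11 had the highest array median. The part of these array-wide differences in the results below was not tested beyond the values given.

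Pull-down was compared with whole brain to ask which transcripts the tagged cells hold in excess, and myelin genes were lower at nearly every probe set of the pulled-down RNA. Of the 25 probe sets 23 passed as lower, 0 as higher, and each of the 9 genes had at least 1 that passed (limma, Benjamini-Hochberg adjusted p under 0.05 over all probe sets). Lower calls were the rule on these arrays, at 76.3% of all probe sets, with 8.06% higher, so the count alone says little about myelin. The median over the 25 was −2.02, against −0.78 over all probe sets, and 13 of the 25 belong to Mbp and Mobp. With 1 probe set per gene, the brightest by its mean over all 24 arrays, the median of the 9 genes was −1.75. Pull-down arrays enter that mean, so the choice can favour probe sets that stay high in pull-down. Marker lists of other brain cells also reached this size, as given with those lists. The differences ran from −5.36 for Mbp probe set 1419646_a_at to −0.20 for Mbp probe set 1456228_x_at. For 19 of the 25 every pull-down array lay below every whole-brain array, which held for 27.5% of all probe sets.

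**Figure D1:**
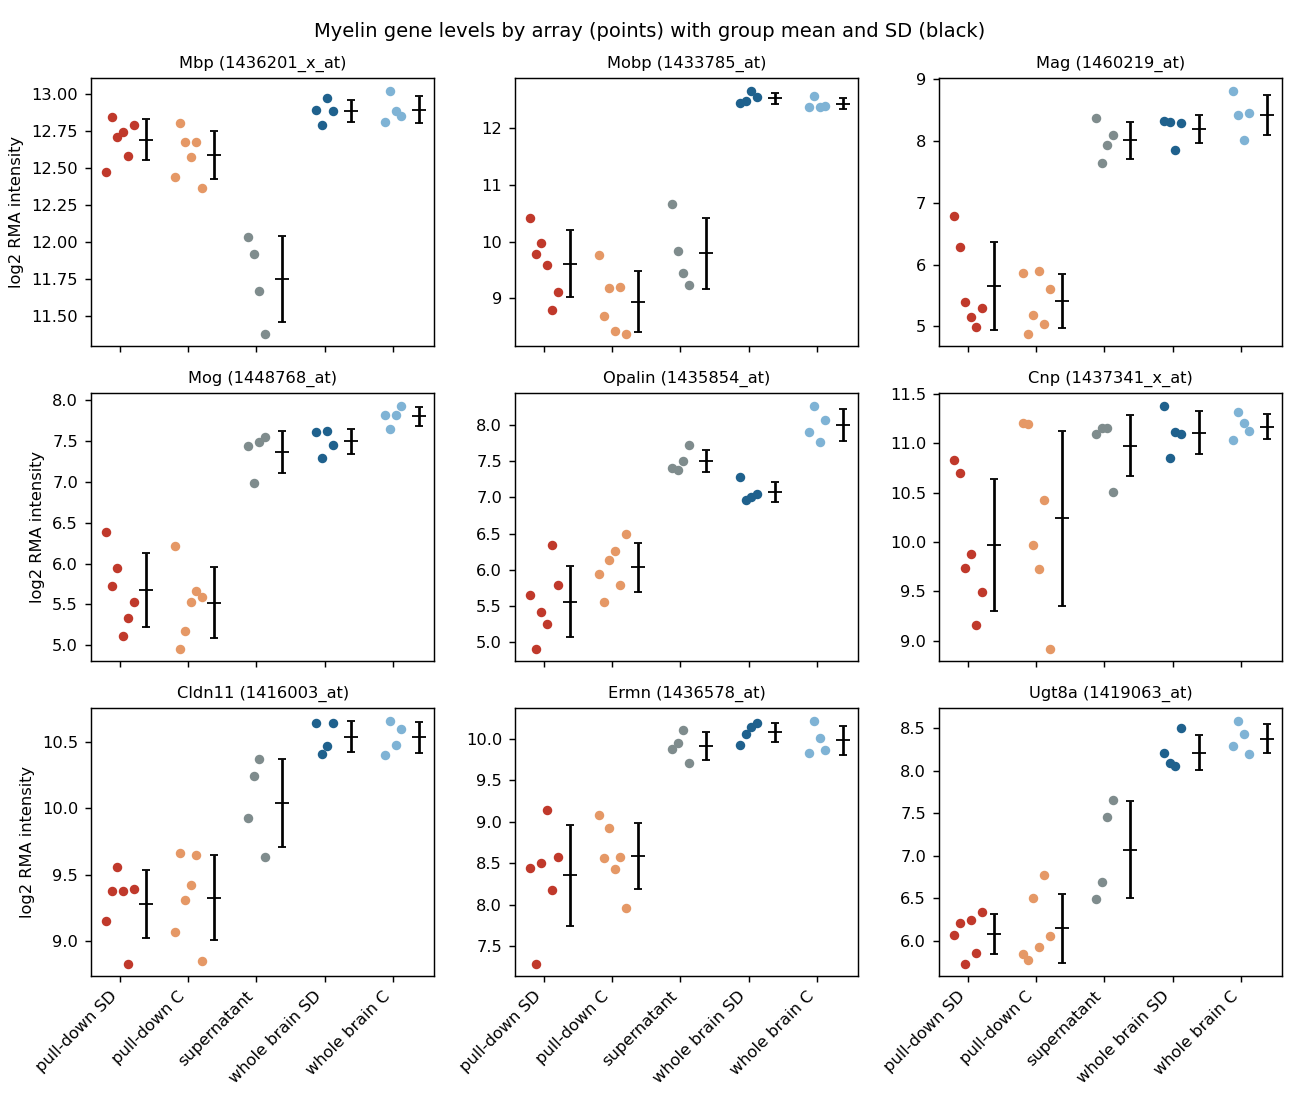
Log2 RMA intensity (vertical axis, its own scale in each panel) of the brightest probe set of each of the 9 genes, by array (points), in the 5 groups, where SD is sleep deprivation and C is control. Black bars give the mean and SD of each group. Mobp, Mag, Mog, Opalin, Cldn11, Ermn and Ugt8a are higher on every whole-brain array than on any pull-down array, whereas Mbp and Cnp overlap at these probe sets.

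The proteins of compact myelin gave the extremes. At 1419646_a_at, Mbp read 5.69 to 8.55 (median 6.27, n = 12) in pull-down, 11.22, 11.23, 11.52 and 11.84 in supernatant and 11.77 to 12.08 (median 11.91, n = 8) in whole brain. The pull-down arrays were all far below the references, and the 2 highest of them, sleep-deprived 1 (8.55) and control 3 (7.80), were the 2 with the most 18S signal. Without these and control 11 the difference of −5.36 ± 0.26 (SE) was −5.67. Probe set 1436201_x_at, the brightest of Mbp, instead read 12.36 to 12.84 (median 12.67) in pull-down, 11.38, 11.67, 11.92 and 12.03 in supernatant and 12.79 to 13.02 (median 12.88) in whole brain. Here pull-down reached the range of whole brain and supernatant was the low extract, and the difference from whole brain, −0.25 ± 0.12, just missed the threshold (adjusted p = 0.0503, limma). Mobp at 1433785_at read 8.38 to 10.42 (median 9.19) in pull-down, 9.23, 9.45, 9.84 and 10.66 in supernatant and 12.37 to 12.66 (median 12.46) in whole brain. Pull-down and supernatant overlapped, and every whole-brain array stood above both, with a difference from pull-down of −3.20 ± 0.21 (adjusted p = 8.14e-13).

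The adhesion molecules and surface proteins were lower without overlap. Mag read 4.88 to 6.78 (median 5.35) in pull-down, 7.65, 7.94, 8.10 and 8.37 in supernatant and 7.86 to 8.82 (median 8.32) in whole brain, a difference of −2.78 ± 0.21 from whole brain. Mog read 4.96 to 6.38 (median 5.56), then 6.99, 7.44, 7.49 and 7.55, and 7.29 to 7.93 (median 7.63), in the same order, a difference of −2.05 ± 0.17. Opalin at 1435854_at read 4.91 to 6.50 (median 5.79), then 7.38, 7.41, 7.51 and 7.72, and 6.96 to 8.27 (median 7.52), a difference of −1.75 ± 0.16. For these genes supernatant and whole brain overlapped and pull-down lay below both.

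The cytoplasmic, junctional and lipid-making members were lower as well. Cnp at 1437341_x_at read 8.92 to 11.20 (median 9.92) in pull-down, 10.51, 11.09, 11.15 and 11.15 in supernatant and 10.85 to 11.38 (median 11.12) in whole brain. Its pull-down arrays were the most scattered of the brightest probe sets, and 2 controls (11.20 and 11.19) reached the whole-brain range, with a difference of −1.04 ± 0.25 (adjusted p = 0.000455). Cldn11 read 8.83 to 9.66 (median 9.38), then 9.63, 9.93, 10.24 and 10.37, and 10.40 to 10.66 (median 10.54), a difference of −1.23 ± 0.14. Ermn at 1436578_at read 7.29 to 9.14 (median 8.53), then 9.71, 9.88, 9.95 and 10.11, and 9.83 to 10.22 (median 10.03), a difference of −1.56 ± 0.18. Ugt8a at 1419063_at read 5.73 to 6.77 (median 6.06), then 6.49, 6.69, 7.45 and 7.66, and 8.05 to 8.59 (median 8.25), a difference of −2.19 ± 0.17. For Ugt8a 1419063_at and Cldn11 whole brain was highest and supernatant lay between, overlapping the top of pull-down. At Ugt8a 1419064_a_at supernatant (7.00 to 7.98) overlapped whole brain (7.36 to 7.71), and both lay above pull-down (2.90 to 5.09). The step from whole brain to supernatant passed for Ugt8a 1419063_at (1.22 ± 0.22, adjusted p = 0.000399, limma). It did not pass for Ugt8a 1419064_a_at (−0.11 ± 0.30, adjusted p = 0.889) or for Cldn11 (0.49 ± 0.19, adjusted p = 0.0961). The spread in this fit includes that of pull-down. Cldn11 did not overlap between whole brain and supernatant, and it passed with array weights (adjusted p = 0.0133, limma). With those weights 7860 of all 45037 probe sets were higher in whole brain.

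Scaling matters for the sign of the smaller differences. With arrays centred on their medians the median of all probe sets moved from −0.78 to 0.37, and that of the 25 to −0.86, with 14 lower and 4 higher. Of all 45037 probe sets 8245 were then lower and 23403 higher. With quantile normalization over all arrays the median of all probe sets was 0.09 and that of the 25 −1.16. Under all 3 scalings 18 of the 25 were below 0. The 7 that were not are the 3 x_at probe sets and 1425264_s_at of Mbp, 1436263_at of Mobp, 1437341_x_at of Cnp and 1447487_at of Opalin, which was above 0 under both alternatives. Under each scaling the median of the 25 lay below that of all probe sets. Among all 239 probe sets with a whole-brain level above 12 the median difference was −0.01, and the 6 myelin probe sets among them had −0.81. These 6 belong to Mbp and Mobp only and ran from −3.20 to −0.20. Of 6643 with a level from 8 to 10 the median difference was −0.94, and 7 myelin probe sets had −2.19. From 10 to 12 it was −0.49, and 6 had −1.96. From 6 to 8 it was −1.10, and 5 had −2.05. Below 6 it was −0.67, and the 1 myelin probe set, at −0.46, lay above it.

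Probe sets of 1 gene disagreed, most of all for Mbp. Its pull-down differences from whole brain spanned 5.16 log2 units over 8 probe sets, from 1419646_a_at (−5.36 ± 0.26) through 1451961_a_at (−3.06 ± 0.23), 1425263_a_at (−2.22 ± 0.17), 1433532_a_at (−1.36 ± 0.13) and 1425264_s_at (−1.09 ± 0.20) to the x_at probe sets at −0.26, −0.25 and −0.20. Of 52 genes with 8 or more probe sets the median span was 2.61, the widest was 5.50, and 1 was wider than that of Mbp. Mobp spanned 3.25 over 5 probe sets, from 1450088_a_at (−4.19 ± 0.29) to 1436263_at (−0.94 ± 0.16), and Cnp 3.28 over 3, from 1418980_a_at (−4.31 ± 0.26) to 1437341_x_at. Over 4315 genes with 3 or more probe sets the median span was 1.64. Opalin spanned 1.28, with its dim probe set 1447487_at at −0.46 ± 0.15, Ugt8a 1.35, with 1419064_a_at at −3.53 ± 0.22, and Ermn 0.23. The suffix x_at marks probe sets whose probes can also bind other transcripts, a_at those shared by transcript forms of 1 gene and s_at those shared by several transcripts. The place of each probe set along its transcript was not used here, and the Gapdh 3′ excess was larger in pull-down, so the part of probe position in these spans was not tested.

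**Figure D2:**
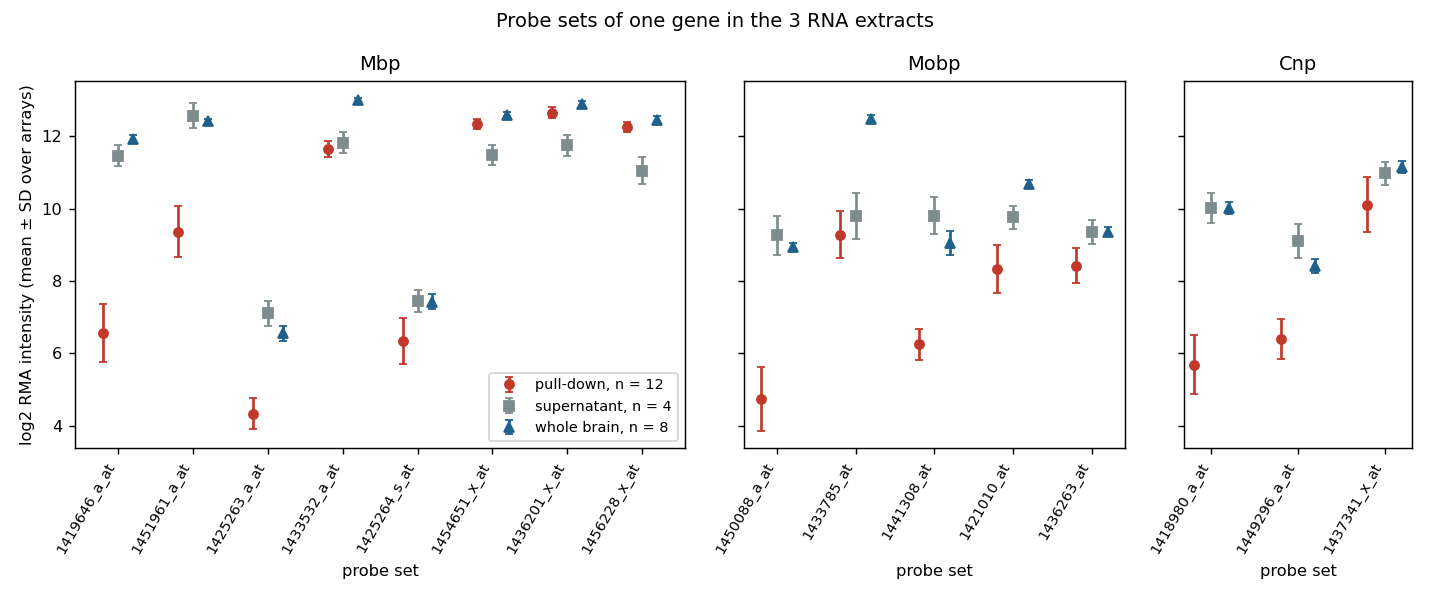
Mean log2 RMA intensity with SD over arrays (vertical axis) for each probe set of Mbp, Mobp and Cnp (horizontal axis, ordered by the difference between pull-down and whole brain) in pull-down, supernatant and whole brain. The pull-down mean of Mbp differs from that of whole brain by −5.36 at the left and by −0.20 at the right, where it is above that of supernatant.

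Against supernatant, the RNA that did not bind the beads, most myelin probe sets were again lower in pull-down, and 3 of Mbp were higher. Of the 25, 19 passed as lower (67.4% of all probe sets) and 3 as higher (11.2% of all), with a median of −1.44 against −0.85 over all. With 1 probe set per gene the median of the 9 genes was −0.96, close to that of all probe sets. Arrays did not overlap for 12 of the lower (32.1% of all) and for all 3 of the higher (6.39% of all). The higher ones were the x_at probe sets of Mbp: 1456228_x_at by 1.20 ± 0.15, 1436201_x_at by 0.89 ± 0.15 and 1454651_x_at by 0.86 ± 0.15 (adjusted p of 1.51e-07, 7.81e-06 and 1.07e-05, limma). They passed as higher under quantile normalization as well, at 0.66, 0.26 and 0.27, and with centred arrays, at 2.37, 2.06 and 2.03. At 1456228_x_at the supernatants read 10.57, 10.94, 11.32 and 11.36 and the pull-downs 12.06 to 12.47 (median 12.28). The largest differences below supernatant were those of Mbp 1419646_a_at (−4.90 ± 0.33), Mobp 1450088_a_at (−4.52 ± 0.36) and Cnp 1418980_a_at (−4.32 ± 0.33). Probe sets that did not pass were Mbp 1433532_a_at (−0.17 ± 0.16), Mobp 1433785_at (−0.52 ± 0.26) and Opalin 1447487_at (−0.33 ± 0.19). The last had a 95% interval of −0.72 to 0.06. With centred arrays 11 were lower and 6 higher, beside 8448 lower and 19867 higher of all 45037. Under all 3 scalings 13 of the 25 were below 0.

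As its first step the study sought probe sets enriched in pull-down over supernatant as well as whole brain. None of the 25 entered that selection (0 of 25, against 7.46% of all), and 19 were lower than both (65.8% of all), with at least 1 for each of the 9 genes. Both comparisons use the same pull-down arrays. With centred arrays 4 of the 25 were higher than both and 11 lower than both. The share of all probe sets in these selections was not counted with centred arrays.

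The references themselves differed for some myelin genes. Whole brain was higher than supernatant at 8 of the 25 (8.89% of all) and lower at 1 (2.01% of all). Arrays did not overlap for 9 of the 25 on the higher side (12.4% of all) and for 0 on the lower (8.65% of all). Mobp 1433785_at was higher by 2.68 ± 0.28 (adjusted p = 1.31e-06), the x_at probe sets of Mbp by 1.12 to 1.40, Mbp 1433532_a_at by 1.19 ± 0.17, Ugt8a 1419063_at by 1.22 ± 0.22, Mobp 1421010_at by 0.92 ± 0.28 and Ermn 1440902_at by 0.68 ± 0.20. The call of Mobp 1421010_at was lost with centred arrays (adjusted p = 0.096) and without supernatant 13, 14 or 15, sleep-deprived whole brain 18 or control 25 (0.0518 to 0.136). That of Ermn 1440902_at was lost with centred arrays (0.0509) and without supernatant 13 (0.0889) or 15 (0.106). Mobp 1441308_at was lower, by −0.75 ± 0.23 (adjusted p = 0.0362). Its call was lost without any 1 of 8 arrays of the references, and the difference was −0.51 (adjusted p = 0.245) without supernatant 15, the highest of its group at 10.51. Whole brain and supernatant differ in fixation and extraction, which cannot be told apart here from the removal of bound RNA. They also differ in sleep state, since 3 of the 4 supernatants are sleep-deprived by title (2 by source) against 4 of 8 whole-brain arrays. The same holds for pull-down against supernatant, as pull-down gives both sleep states equal weight. Mobp 1441308_at averaged 9.80 in supernatant, 9.34 in sleep-deprived and 8.76 in control whole brain, so its difference mixes sleep state with extract.

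**Figure D3:**
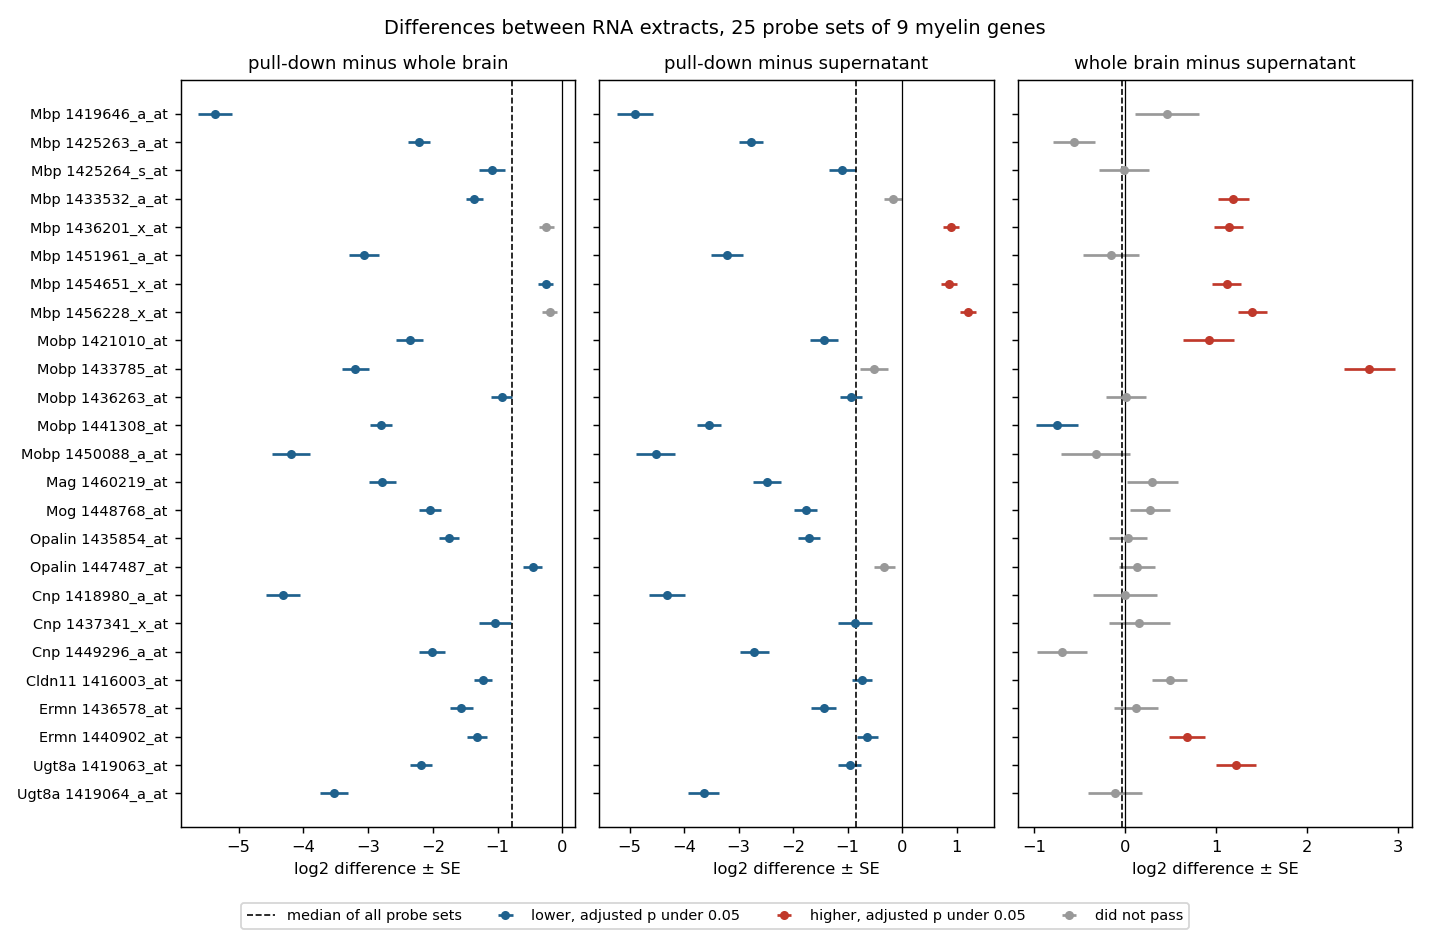
Log2 differences with SE (horizontal axes) of the 25 probe sets between pull-down and whole brain, pull-down and supernatant, and whole brain and supernatant. Blue marks a lower and red a higher call, grey a probe set that did not pass, and the dashed line the median of all probe sets. The 3 red points in the middle panel are the x_at probe sets of Mbp.

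The other genes of the oligodendrocyte lineage were read from lists, with 1 probe set per gene. Of 23 other myelin proteins, 19 were lower and 0 higher in pull-down against whole brain (median −1.63). They include Plekhb1 (−3.44 ± 0.26), a membrane protein with a lipid-binding domain, the tetraspanin Tspan2 (−3.15 ± 0.20), Bcas1 (−2.97 ± 0.19) and the connexin Gjc3 (−2.70 ± 0.19). Of 23 other genes of mature oligodendrocytes, 17 were lower and 2 higher (median −1.08), with the lipocalin Apod at −3.76 ± 0.25. Of 17 enzymes of myelin lipids, 12 were lower and 2 higher (median −0.82), close to the median of all probe sets. Of 14 transcription factors of the lineage, 9 were lower and 1 higher. Their median of −0.63 lay above the −0.78 of all probe sets, and a smaller share was called lower than over all. Sox8 at −2.20 ± 0.23 and Olig1 at −2.14 ± 0.18 were among the largest differences of this list. Of 14 genes of oligodendrocyte precursors, 12 were lower and 0 higher (median −1.14), with the proteoglycan Cspg4 at −2.01 ± 0.16. These counts, like those of the 9 genes, stand beside 76.3% lower calls over all probe sets.

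Markers of other cells were counted in the same way, beside 76.3% lower and 8.06% higher calls over all probe sets. Lower in pull-down were 13 of 14 markers of endothelial cells and pericytes, 13 of 14 of microglia, 12 of 15 of astrocytes and 8 of 15 of neurons, while 0, 0, 1 and 1 were higher. Their medians were −1.82, −1.62, −1.38 and −0.99, beside −1.75 for the 9 myelin genes and −0.78 for all probe sets. A shift of the size of that of the myelin genes was thus not seen in them alone. The mean level of the neuron markers was 9.32 to 11.33 on pull-down arrays and 11.33 to 11.47 in whole brain, and that of the 9 myelin genes 7.78 to 8.46 and 9.69 to 10.08. Of 8 Schwann cell genes 5 were lower and 1 higher, and their median of −0.66 was above that of all probe sets. In the neuron and Schwann cell lists the share called lower was below that over all probe sets. Whether the other cells have a part in the myelin differences was not tested.

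**Figure D4:**
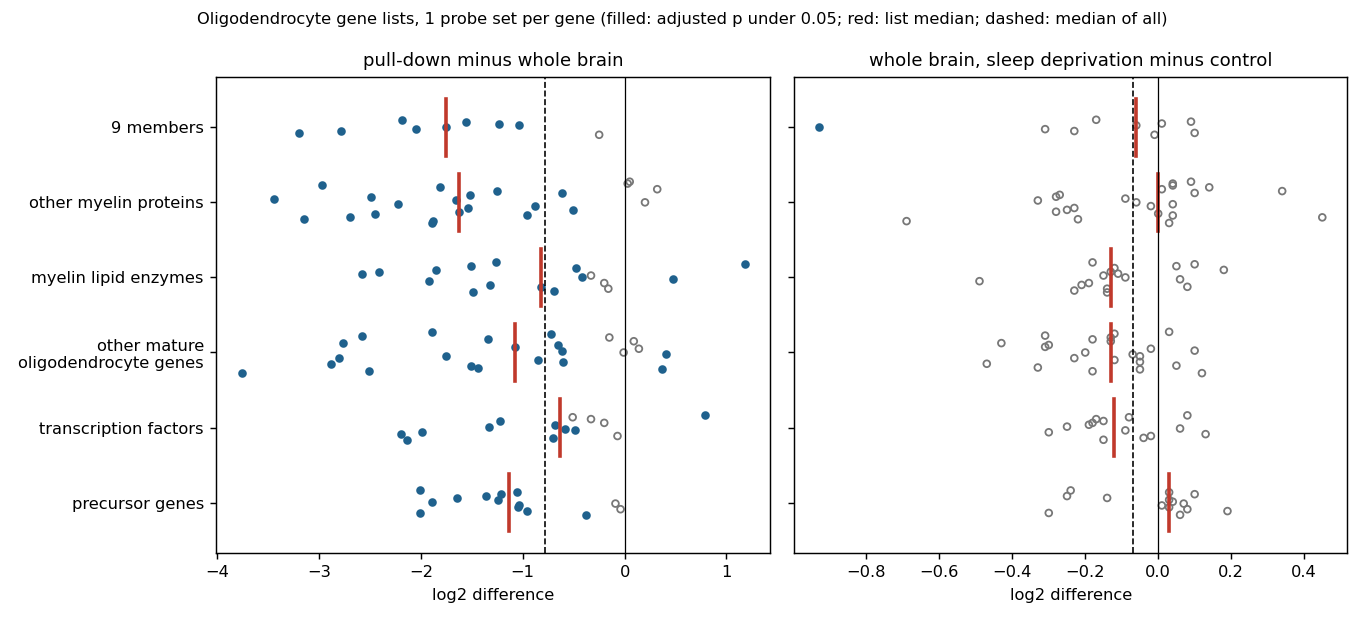
Log2 differences (horizontal axes) of the 9 genes and of 5 lists of oligodendrocyte genes, 1 probe set per gene, for pull-down minus whole brain and for sleep deprivation in whole brain. Filled points passed at adjusted p under 0.05, red bars are list medians and dashed lines the medians of all probe sets. In the right panel the 1 filled point is Opalin.

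In whole brain, sleep deprivation was compared with control to ask what 6 h awake change across all cells, and Opalin was the only one of the 9 genes to pass. It fell at 1435854_at, with 7.01, 6.96, 7.05 and 7.28 on the sleep-deprived arrays 18 to 21 and 7.76, 7.91, 8.27 and 8.07 on the control arrays 22 to 25. Every sleep-deprived array lay below every control. The difference was −0.93 ± 0.13 (SE, 4 against 4; 95% interval −1.21 to −0.65; adjusted p = 0.025, limma), a 1.90-fold lower level. Of the 25 probe sets 1 passed as lower (0.0111% of all, 5 probe sets) and 0 as higher (0.0355% of all, 16 probe sets). At an unadjusted p under 0.05 there were 2 lower and 1 higher, against 3979 and 947 of all. The call rests on few arrays: it was lost without any 1 of 7 of the 8 arrays (adjusted p of 0.0512 to 0.116) and held without control 22 (0.0308), while the difference stayed between −1.01 and −0.84. In 1 fit of all 24 arrays, where the spread includes that of pull-down, the adjusted p was 1.

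The other probe set of Opalin, 1447487_at, read −0.23 ± 0.13 (95% interval −0.52 to 0.06) at low levels of 3.10 to 3.86. Mog, of the outer sheath surface, read 7.62, 7.29, 7.45 and 7.61 after sleep deprivation and 7.81, 7.81, 7.64 and 7.93 in controls, without overlap, a difference of −0.31 ± 0.12 that did not pass (adjusted p = 0.39, limma). Mobp 1441308_at read 9.40, 9.49, 9.24 and 9.21 against 8.61, 8.91, 8.81 and 8.73, again without overlap and in the other direction. Its difference of 0.57 ± 0.11 did not pass (adjusted p = 0.134) and did so with a trended, robust variance prior (0.0114) and with dim probe sets left out (0.0468). The other 4 probe sets of Mobp read −0.19 to 0.10. Arrays did not overlap for 2 of the 25 on the lower side (Mog and Opalin; 4.25% of all) and for 1 on the higher (1.75% of all).

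The other members differed from control by −0.23 to 0.20, and none passed. Mbp read −0.18 to 0.20 over its 8 probe sets, and the brightest, 1436201_x_at, −0.01 (95% interval −0.23 to 0.22). Cnp 1418980_a_at read −0.23 ± 0.11, Mag −0.23 ± 0.16, Ugt8a 1419063_at −0.17 ± 0.13, Ermn 1436578_at 0.09 ± 0.12 and Cldn11 0.01 ± 0.11. The adjusted p of these was 0.472 or more. The lowest bound of any of their 95% intervals was −0.58, for Mag, above the −0.65 at which that of Opalin ends. The median over the 25 was −0.03, against −0.07 over all probe sets. The mean of the 9 genes, 1 probe set each, was 9.69 to 9.86 on the sleep-deprived and 9.89 to 10.08 on the control arrays. Less the array's own median it was 3.59 to 3.80 and 3.65 to 3.94, which overlap. Of the 9 differences behind this mean 6 were below control and 3 above, with a median of −0.06. The −0.93 of Opalin was the largest of them.

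Among the other lists, 0 oligodendrocyte genes passed in whole brain (limma). Other genes of mature oligodendrocytes were below control for 19 of 23 (median −0.13), 6 of them at an unadjusted p under 0.05, all lower. Of all probe sets 66.7% were below control (median −0.07). At an unadjusted p under 0.05, 3979 of all 45037 were lower and 947 higher. Lowest in p were Tmem88b (−0.43 ± 0.10, adjusted p = 0.221) and Ppp1r14a (−0.47 ± 0.16, adjusted p = 0.349). Of the myelin proteins, the proteolipid plasmolipin, Pllp, read −0.69 ± 0.12 (adjusted p = 0.0788), and 5 of 23 were lower and 1 higher at an unadjusted p under 0.05. Among lipid enzymes the elongase Elovl7 read −0.49 ± 0.11 (adjusted p = 0.197), 1 of 17 at that level. Transcription factors had 11 of 14 below control, beside the same 66.7%, and 0 at an unadjusted p under 0.05, and precursors 4 of 14 below and 1, Cspg4 (−0.30 ± 0.14), at that level. In the Schwann cell list, Egr2, known in neurons as an activity-induced gene, rose by 1.12 ± 0.17 (adjusted p = 0.0371).

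**Figure D5:**
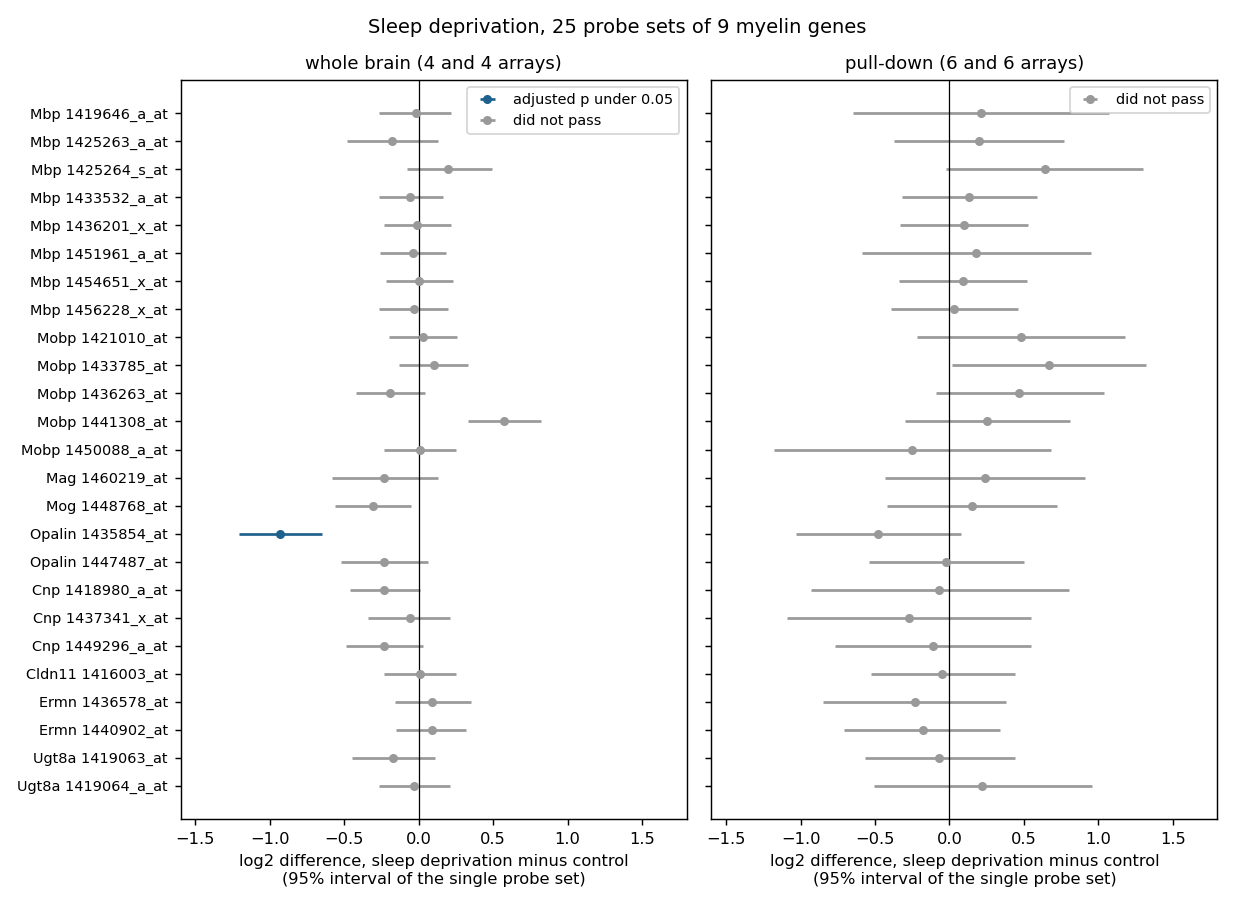
Log2 difference between sleep deprivation and control (horizontal axes) with the 95% interval of each single probe set, for the 25 probe sets in whole brain and in pull-down. Blue marks the 1 probe set that passed, Opalin 1435854_at at −0.93 in whole brain, and all others did not pass.

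In pull-down the same comparison, 6 against 6, called no myelin probe set and no probe set at all (0 of 45037 at adjusted p under 0.05 with limma, 0%; 222 higher and 208 lower at an unadjusted p under 0.05). Opalin 1435854_at read 4.91 to 6.34 (median 5.53) after sleep deprivation and 5.56 to 6.50 (median 6.04) in controls, which overlap. The difference of −0.48 ± 0.27 had a 95% interval of −1.03 to 0.08, which takes in both no change and the fall in whole brain. Mobp 1433785_at read 8.79 to 10.42 (median 9.69) and 8.38 to 9.76 (median 8.94), also overlapping. Its difference of 0.67 ± 0.31 was the 1 member with an unadjusted p under 0.05 (adjusted p = 1). It was 0.58 without sleep-deprived pull-down 1 and controls 3 and 11. Mbp differed by 0.03 to 0.64 over its 8 probe sets and Mog by 0.15 ± 0.27. Cnp 1437341_x_at read −0.27 ± 0.39 and Ermn 1436578_at −0.23 ± 0.29. The SE of the brightest probe sets was 0.20 to 0.39 in pull-down and 0.10 to 0.16 in whole brain, so pull-down could show only larger differences.

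The difference between the 2 effects of sleep deprivation was tested as an interaction. No member and no other probe set passed (0 of 45037 with limma, 0%; 90 higher and 62 lower at an unadjusted p under 0.05, 0 of them members). For Opalin the pull-down effect exceeded that of whole brain by 0.45 ± 0.34 (95% interval −0.25 to 1.15). The fall of Opalin is therefore not shown to differ between the extracts.

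Array-to-array variation within an extract was described after the group means were removed, by each gene's Pearson correlation with the mean of the other 8. Over the 8 whole-brain arrays 7 of the 9 genes had 0.248 (Ermn) to 0.831 (Cldn11), while Mag had −0.197 and Mog −0.189. Over the 12 pull-down arrays the values ran from −0.602 (Opalin) to 0.859 (Mobp), with 6 of 9 above 0. The median over all genes outside the lists of the correlation with the mean of the 9 was 0.0171 in whole brain and −0.0819 in pull-down. The arrays of an extract share its depth of signal and its normalization, and these values are descriptions. Genes outside all lists with the pattern most like the mean of the 9 were Rps7 (0.986), Slc16a1 (0.976), Cadps2 (0.973), Slc6a13 (0.965) and AU020206 (0.960) in whole brain. In pull-down they were Ctsb (0.966), Rtcb (0.957), Hpcal4 (0.955), Canx (0.953) and Zfp90 (0.953). No gene was among the 5 in both extracts. These are the highest values among all genes outside the lists, over 8 or 12 arrays, and whether they exceed chance was not tested.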

How the data were processed

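RNA of 24 mouse brain samples was measured on 1 array each. The authors deposited log2 intensities per probe set made with RMA (affy, per the submitters' processing notes); versions and whether all arrays were normalized together are not given in the sources used here. These log2 values were used as deposited. Of 45101 probe sets 64 controls were left out. The annotation, of 2016, gave exactly 1 symbol to 34945, several to 932 and none to 9160.

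Groups came from the labels. limma 3.58.1 in R 4.3.3 (lmFit, eBayes, two-sided, Benjamini-Hochberg over 45037, threshold 0.05) fitted all 24 arrays for extracts, 8 or 12 for sleep deprivation and 20 for the interaction. The scripts were tested on simulated data. The design text counts 20 mice, as many as the pull-down and whole-brain arrays; supernatants may come from mice that also gave a pull-down, which no test accounts for. P-values measure the spread between these samples, whose number limits precision. No pair was identical (highest correlation 0.991 across probe sets).

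Values by array are given for each gene's brightest probe set and any that passed for sleep deprivation; Mbp 1419646_a_at and 1456228_x_at, Mobp 1441308_at and Opalin 1447487_at were added after their values were seen. For lists, the 4 largest differences that passed or the 4 smallest p may be named. The 9 genes and the 10 lists were chosen with earlier results of these data known. Alternatives were quantile normalization, median centring, array weights, a trended robust prior, only probe sets above 6 on at least 4 arrays, without 3 pull-down arrays, 1 fit of all arrays and leaving out each array.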

Additional observations from a re-analysis of the deposited data

Results flagged for a closer look

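In 12 of 125 groups of a probe set, the highest or lowest array stood apart by Dixon's test at 95%, where chance gives about 1 in 20. Pull-down after sleep deprivation 1 was high for Mbp 1419646_a_at (8.55, others 6.19 to 6.48), Mbp 1451961_a_at (10.89, others 8.79 to 9.54) and Mobp 1441308_at (7.37, others 5.88 to 6.42). Whole-brain control 24 was low for Mbp 1425263_a_at (6.26, others 6.72 to 6.80) and Ugt8a 1419064_a_at (7.39, others 7.57 to 7.60) and high for Mobp 1433785_at (12.57, others 12.37 to 12.39). Pull-down control 4 was low for Mbp 1425264_s_at (5.05, others 6.04 to 6.38) and Ugt8a 1419064_a_at (2.90, others 3.85 to 4.37), and pull-down control 11 high for Cnp 1449296_a_at (7.82, others 5.89 to 6.38). Whole brain after sleep deprivation 18 was low for Mag (7.86, others 8.30 to 8.33), supernatant 14 for Opalin 1447487_at (2.91, others 3.34 to 3.37) and supernatant 13 for Cnp 1437341_x_at (10.51, others 11.09 to 11.15).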

How the results depend on the processing

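With median centring, differences between pull-down and whole brain turned positive for Mbp 1425264_s_at (0.07), 1436201_x_at (0.91), 1454651_x_at (0.90) and 1456228_x_at (0.95), Mobp 1436263_at (0.21), Opalin 1447487_at (0.69) and Cnp 1437341_x_at (0.12). Against supernatant they did so for Mbp 1425264_s_at (0.08) and 1433532_a_at (1.01), Mobp 1436263_at (0.24), Opalin 1447487_at (0.85), Cnp 1437341_x_at (0.30), Cldn11 (0.44), Ermn 1440902_at (0.53) and Ugt8a 1419063_at (0.21). With quantile normalization Opalin 1447487_at (0.02, whole brain), Ermn 1440902_at (0.30) and Ugt8a 1419063_at (0.04, both supernatant) turned. Centring gave 14 lower and 4 higher against whole brain (8245 and 23403 of all 45037) and 11 and 6 against supernatant (8448 and 19867). It gave 4 enriched and 11 depleted, for which the share over all was not counted. Whole brain was below supernatant at 3 probe sets with quantile normalization, centring or array weights (4329, 1760 and 5983 of all, in that order). In whole brain, sleep deprivation gave 1 higher call with the trended robust prior and with dim probe sets left out, and 0 lower in 1 fit of all arrays. The causes of these shifts were not tested.

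List medians less that of all probe sets changed sign with all probe sets per gene for transcription factors (−0.17 against whole brain, −0.34 against supernatant), neurons (−0.07) and Schwann cells (−0.03), and with quantile normalization for lipid enzymes (0.02), neurons (−0.77) and endothelial cells (0.12), these 5 against supernatant.

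Leaving out 1 array gave 22 to 24 lower against whole brain, 19 to 20 against supernatant, 19 to 20 depleted, 6 to 8 higher and 0 to 2 lower for whole brain against supernatant, and 0 to 1 lower for sleep deprivation in whole brain. Among the 25 probe sets, limma called 0 for sleep deprivation in pull-down and 0 for the interaction under every alternative run, each array left out included. Of 4161 recomputed values 4034 were labelled unchanged. For a probe set that label meant the same side of the threshold, and the same direction if it passed in either fit. A probe set that passed in neither fit was thus labelled unchanged whatever its difference. All were so for sleep deprivation in pull-down and for the interaction. Leaving out an array of a group outside a comparison also left its difference as it was. The number labelled unchanged is therefore no measure of how firm the results are. For a count it meant a similar size. For a list median it meant a shift within the spread of its genes, with the sign kept where any gene passed as lower. No paired analysis was possible because the groups compared share fewer than 2 replicate numbers. Signal over background was not tested, as RMA values carry no background level, so dim probe sets such as Opalin 1447487_at are less firm.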
